A study of Mus musculus with 9 samples.

Results

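The 8 scavenger receptor transcripts described here are Marco, Msr1, Olr1, Cd36, Scarb2, Mrc1, Stab1 and Lrp1, taken by gene symbol from a table of 12204 genes, in which all 8 were listed. Scavenger receptors are surface and lysosomal proteins through which macrophages bind and take up modified lipoproteins, microbes, dying cells and glycoproteins. They belong to unrelated families that share this ligand range. Some are trimers with a collagen-like stalk that bind polyanions and bacteria, some are class B proteins that cross the membrane at both ends, and others carry lectin, fasciclin or LDL receptor domains. In resting macrophages they serve tissue clearance and lipid uptake, and several are known to be controlled by Toll-like receptor signals.

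The 8 were followed in 9 libraries of mRNA 3′ ends from mouse macrophages (C57/Bl6J), grown from bone marrow for 6 days in medium with 20% L929 cell supernatant, a source of macrophage growth factor. There were 3 groups of 3 libraries: LPS + BMS, with 50 µM BMS303141 given for 1 h and then 10 ng/ml lipopolysaccharide (LPS, the Toll-like receptor 4 ligand) for 4 h; LPS, with the same 4 h of LPS alone; and UT, left untreated. BMS303141 inhibits ATP-citrate lyase (Acly), which makes cytosolic acetyl-CoA. No library had the inhibitor without LPS and no vehicle is named, so every inhibitor value here includes LPS. Whether replicates came from different mice or cultures is not in the labels; the p-values thus reflect library-to-library spread, possibly only technical.

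The values are log2 CPM (counts per M reads, M being the prefix mega), and the depth behind them was estimated at 3.56 to 3.75 M reads in LPS + BMS, 1.84 to 3.21 M in LPS and 3.21 to 5.05 M in UT libraries. LPS replicate 1 was the shallowest library and stood apart on the second principal component, at 63.1 against -1.31 and 5.48 for the other LPS libraries. Tnf, a standard LPS target, was 6.16 higher in LPS than in UT on the log2 scale (SE 0.22, adjusted p = 7.88e-11, limma). Acly differed by -0.09 between LPS + BMS and LPS (95% interval -0.38 to 0.21, adjusted p = 0.802, limma). All 8 macrophage marker genes were listed, with Lyz2 (lysozyme) the most abundant. Of other cell types few markers were listed: 1 of 5 for mast cells (Hdc), 1 of 6 for endothelium (Kdr), 1 of 6 for lymphocytes (Lck), 1 of 8 for dendritic cells (Itgax), 4 of 6 for stroma (Sparc the most abundant), 1 of 4 for platelets (Pf4), 3 of 8 for neutrophils (S100a8 the most abundant), 0 of 4 for erythroid cells and 0 of 3 for adipocytes.

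LPS split the receptors into opposite directions. Marco, Olr1 and Msr1 rose, while Lrp1, Cd36, Scarb2, Stab1 and Mrc1 fell. Thus 3 of 8 were called higher, where 21.5% of all 12196 tested genes were, and 5 of 8 lower, where 25.4% were (limma, adjusted p under 0.05). The median difference of the 8 was -1.19 on the log2 scale, against -0.06 over all tested genes. With the inhibitor on top of LPS the same split was present against UT, with 3 higher (21.5% of all genes) and 5 lower (25.6% of all genes); this comparison shares the UT libraries with the first. Between LPS + BMS and LPS none of the 8 was called, where 0.959% of all genes were called higher and 1.16% lower. At an unadjusted p under 0.05 (limma) this count was 1, Msr1. The share of all genes at that looser threshold was not counted, so this count has no background beside it and is not read as a result. In bulk RNA, fewer cells with a transcript and less of it per cell cannot be told apart.

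**Figure D1:**
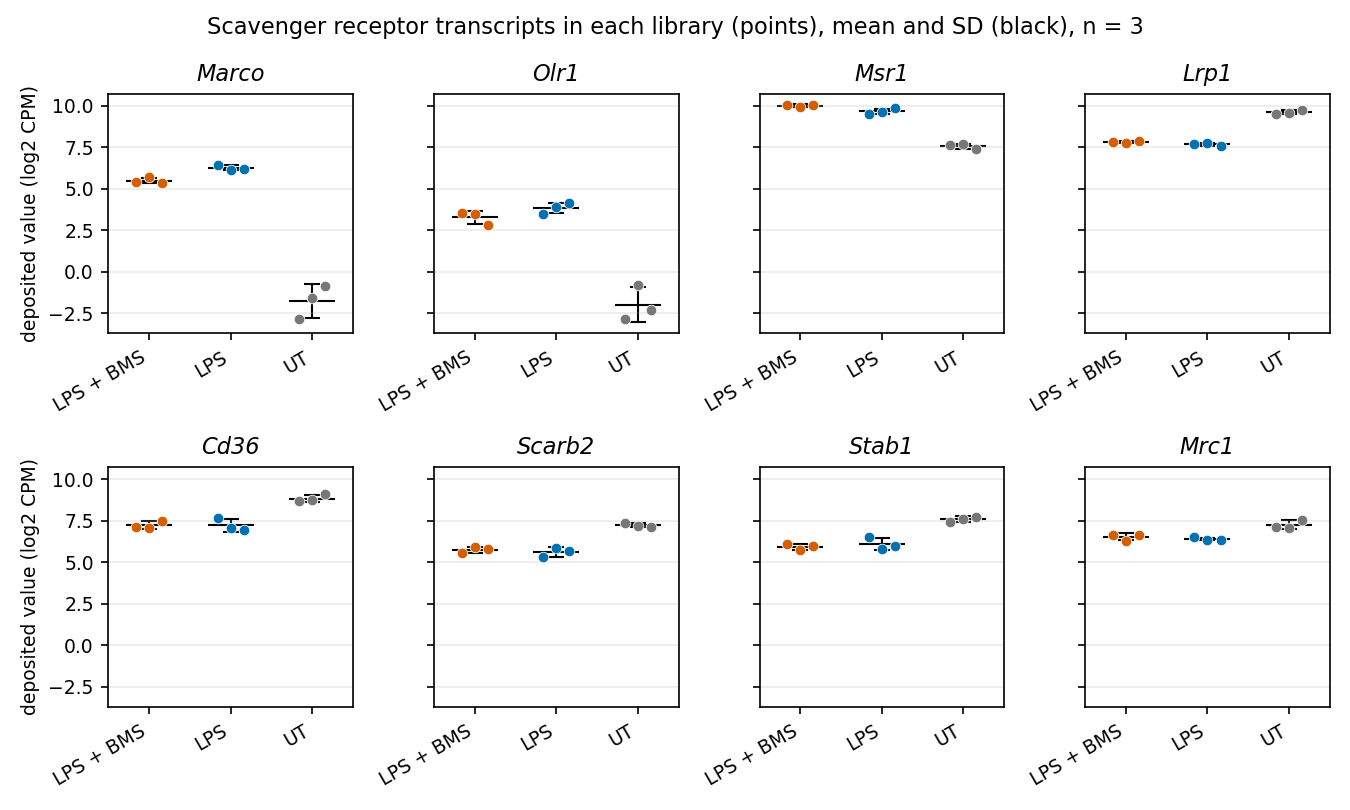
Deposited values (log2 CPM, y axis) of the 8 scavenger receptors in LPS + BMS, LPS and UT libraries (x axis), 1 point per library with the mean and SD of 3 in black. Marco and Olr1 lie below 0 in all UT libraries, Msr1 is higher with LPS, and the other 5 receptors are lower with LPS in both treated groups.

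The promoters of the 2 transcripts with the steepest rise and of Lrp1 and Scarb2, which fell, are shown as examples of both directions. RefSeq windows (GRCm38.p6) of 250 bases before to 50 after the start were at hand for 7 of the 8 genes, all but Msr1. They were searched on both strands for 6 motifs. These were AP-1 (TGANTCA), the NF-kB consensus, the E-box CACGTG, the antioxidant response core TGACNNNGC, the nuclear receptor half-site AGGTCA and the TATA box TATAAA. The AP-1 motif and the antioxidant response core can begin with the same bases; no matches overlapped here. The 250 bases before the start follow, 5′ to 3′ on the gene's strand, with motif matches in capitals.
Marco, chr1:120505025-120505274, minus strand: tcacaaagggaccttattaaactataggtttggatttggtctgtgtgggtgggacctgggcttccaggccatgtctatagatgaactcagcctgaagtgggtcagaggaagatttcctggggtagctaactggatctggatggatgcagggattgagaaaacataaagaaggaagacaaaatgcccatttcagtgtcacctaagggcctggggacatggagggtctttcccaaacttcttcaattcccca
Olr1, chr6:129507166-129507415, minus strand: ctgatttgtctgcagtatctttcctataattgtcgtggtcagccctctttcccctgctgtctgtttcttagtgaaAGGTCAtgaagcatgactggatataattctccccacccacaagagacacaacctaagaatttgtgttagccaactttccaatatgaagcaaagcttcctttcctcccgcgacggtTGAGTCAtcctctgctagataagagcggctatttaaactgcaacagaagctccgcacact
Scarb2, chr5:92505658-92505907, minus strand: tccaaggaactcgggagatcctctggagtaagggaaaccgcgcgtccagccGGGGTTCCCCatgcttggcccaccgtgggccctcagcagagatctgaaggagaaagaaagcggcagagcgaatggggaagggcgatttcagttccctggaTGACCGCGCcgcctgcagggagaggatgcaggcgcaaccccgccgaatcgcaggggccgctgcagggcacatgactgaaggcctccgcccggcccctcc
Lrp1, chr10:127621149-127621398, minus strand: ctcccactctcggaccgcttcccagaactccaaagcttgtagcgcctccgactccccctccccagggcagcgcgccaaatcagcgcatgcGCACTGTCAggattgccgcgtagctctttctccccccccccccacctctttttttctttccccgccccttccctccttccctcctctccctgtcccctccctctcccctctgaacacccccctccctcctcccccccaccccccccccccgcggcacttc

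Olr1 held an AP-1 match at positions -60 to -54 from the start and a nuclear receptor half-site at -175 to -170. Over all 32851 windows of the same length these occurred in 7.81% and 16.3%. Marco held none of the 6 motifs, nor did Mrc1 and Stab1. Scarb2 held an NF-kB consensus at -199 to -190 (4.51% of all windows) and an antioxidant response core at -99 to -91 (12.4%). Lrp1 held an antioxidant response core at -160 to -152, and Cd36 a half-site at -228 to -223. The RefSeq starts used for Scarb2 and Cd36 lie inside the gene spans given below, so their windows are within the annotated genes. The E-box (7.15% of all windows) and the TATA box (13.6%) had no match in the 7 windows. Msr1, which also rose, had no window, and the windows of Marco and Olr1 were 47.3% and 46.0% G or C. Those of the receptors that fell were 43.0% for Cd36, 50.3% for Mrc1, 57.3% for Stab1, 67.3% for Scarb2 and 67.7% for Lrp1. The median over all windows was 52.7%. A match is a description of letters and not of binding.

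Marco (ENSMUSG00000026390, chromosome 1, 120474538 to 120505024, minus strand, GRCm38) encodes a class A receptor that binds bacteria and particles. It was at 5.44, 5.69 and 5.37 log2 CPM in LPS + BMS, 6.45, 6.15 and 6.22 in LPS, and -2.85, -1.58 and -0.87 in UT libraries. The UT values lay 0, 1 and 1 value steps above each library's lowest value, which is close to no reads, and no groups overlapped. In LPS against UT it rose by 8.04 on the log2 scale (SE 0.38, adjusted p = 1.28e-09, limma), and in LPS + BMS against UT by 7.27 (SE 0.38, adjusted p = 3.76e-09). The size of such a rise is imprecise. Taking the lowest value as 0 reads, the LPS + BMS libraries held about 497 Marco reads, the LPS libraries about 612 and the UT libraries 2. That gives a ratio of 459.5 for LPS against UT (exact 95% interval 127 to 3803, counting error only) and of 274 for LPS + BMS against UT (75.5 to 2269).

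Marco was also the receptor with the largest difference between LPS + BMS and LPS. It was at 5.50 ± 0.16 log2 CPM in LPS + BMS and 6.27 ± 0.16 in LPS libraries (SD, n = 3 each), a difference of -0.77 (SE 0.38, 95% interval -1.59 to 0.04), and all LPS + BMS libraries lay below all LPS libraries. It was not called (adjusted p = 0.364, limma). The error comes from all 3 groups together, and Marco had an SD of 1.00 in UT libraries. In a fit of only the LPS + BMS and LPS libraries the same difference was called (adjusted p = 0.0167, limma), and with precision weights as well (adjusted p = 0.00612, limma with vooma). Over the 19 alternatives the difference ranged from -0.87 to -0.68 and the adjusted p from 0.00612 to 0.582.

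Olr1 (ENSMUSG00000030162, chromosome 6, 129485244 to 129507165, minus strand) encodes LOX-1, a lectin-like receptor for oxidised LDL. It was at 3.55, 3.48 and 2.81 log2 CPM in LPS + BMS, 3.51, 3.88 and 4.12 in LPS, and -2.85, -0.79 and -2.33 in UT libraries. Again the UT values were at the bottom of the scale, 0, 2 and 0 steps above the lowest value, and both treated groups lay far above them. Olr1 rose by 5.83 in LPS against UT (SE 0.48, adjusted p = 3.79e-07, limma) and by 5.27 in LPS + BMS against UT (SE 0.48, adjusted p = 1.11e-06). From pooled reads the ratios were 90.9 (exact 95% interval 24.6 to 759) and 60.1 (16.2 to 502.5), each against 2 UT reads. Values of LPS + BMS and LPS libraries overlapped. Their difference was -0.56 and not called (95% interval -1.60 to 0.48, adjusted p = 0.627, limma), and this interval is too wide to exclude a fall or a rise of moderate size.

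Msr1 (ENSMUSG00000025044, chromosome 8, 39581685 to 39642673, minus strand), the class A receptor for acetylated LDL, was well expressed in UT libraries and rose with LPS. It was at 10.05, 9.95 and 10.08 log2 CPM in LPS + BMS, 9.52, 9.64 and 9.85 in LPS, and 7.64, 7.69 and 7.41 in UT libraries. The 3 groups did not overlap, with LPS + BMS highest and UT lowest. Msr1 was 4.26-fold higher in LPS than in UT (log2 difference 2.09, SE 0.11, adjusted p = 4.74e-09, limma) and 5.45-fold higher in LPS + BMS than in UT (2.45, SE 0.11, adjusted p = 1.07e-09). Between LPS + BMS and LPS Msr1 differed by 0.35 (95% interval 0.11 to 0.60), which was not called after adjustment over all genes (unadjusted p = 0.00734, adjusted p = 0.144, limma). It ranged from 0.24 to 0.45 over the alternatives, none of which was called.

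Cd36 (ENSMUSG00000002944, chromosome 5, 17781690 to 17888801, minus strand) encodes a class B receptor for long-chain fatty acids and oxidised LDL. It was at 7.15, 7.05 and 7.50 log2 CPM in LPS + BMS, 7.67, 7.08 and 6.93 in LPS, and 8.70, 8.74 and 9.11 in UT libraries. All treated libraries lay below all UT libraries, and the treated groups overlapped. Cd36 was 3.08-fold lower in LPS than in UT (log2 difference -1.62, SE 0.19, adjusted p = 9.13e-06, limma) and 3.07-fold lower in LPS + BMS than in UT (-1.62, SE 0.19, adjusted p = 9.74e-06). Between LPS + BMS and LPS it differed by 0.00 (95% interval -0.39 to 0.40, adjusted p = 0.994, limma), and the sign of this value turned in 4 alternatives. Platelets also carry Cd36, and of their 4 markers only Pf4 was listed. It was at 27.0 to 41.1 CPM in LPS + BMS, 26.1 to 45.8 in LPS and 5.4 to 8.8 in UT libraries. Pf4 was thus higher where Cd36 was lower, and the part of platelets in the Cd36 values was not tested.

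Scarb2 (ENSMUSG00000029426, chromosome 5, 92441314 to 92506833, minus strand), the other class B member, encodes an abundant membrane protein of lysosomes. It was at 5.56, 5.91 and 5.78 log2 CPM in LPS + BMS, 5.32, 5.87 and 5.69 in LPS, and 7.37, 7.21 and 7.13 in UT libraries. Here too the treated groups overlapped each other and lay below UT. Scarb2 was 3.05-fold lower in LPS than in UT (log2 difference -1.61, SE 0.15, adjusted p = 1.68e-06, limma) and 2.80-fold lower in LPS + BMS than in UT (-1.49, SE 0.15, adjusted p = 3.84e-06). The difference between LPS + BMS and LPS was 0.12 (95% interval -0.21 to 0.46, adjusted p = 0.745, limma), and -0.03 without LPS replicate 1.

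Mrc1 (ENSMUSG00000026712, chromosome 2, 14229392 to 14332057, plus strand) encodes the mannose receptor CD206, a marker of alternatively activated macrophages that takes up mannosylated glycoproteins. It was at 6.67, 6.32 and 6.68 log2 CPM in LPS + BMS, 6.50, 6.36 and 6.35 in LPS, and 7.12, 7.10 and 7.58 in UT libraries. The fall was the smallest among the 5 receptors that fell, without overlap between treated and UT libraries. Mrc1 was 1.81-fold lower in LPS than in UT (log2 difference -0.86, SE 0.15, adjusted p = 0.000375, limma) and 1.63-fold lower in LPS + BMS than in UT (-0.71, SE 0.15, adjusted p = 0.00165). LPS + BMS and LPS differed by 0.15 (95% interval -0.17 to 0.47, adjusted p = 0.683, limma).

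Stab1 (ENSMUSG00000042286, chromosome 14, 31139013 to 31168641, minus strand) encodes stabilin-1, which clears acetylated LDL and the matrix protein SPARC. It was at 6.09, 5.72 and 5.97 log2 CPM in LPS + BMS, 6.51, 5.79 and 5.99 in LPS, and 7.44, 7.63 and 7.77 in UT libraries. LPS replicate 1 was the highest treated library, still below every UT library. Stab1 was 2.86-fold lower in LPS than in UT (log2 difference -1.52, SE 0.18, adjusted p = 1.08e-05, limma) and 3.21-fold lower in LPS + BMS than in UT (-1.68, SE 0.18, adjusted p = 4.10e-06). LPS + BMS and LPS differed by -0.17 (95% interval -0.55 to 0.21, adjusted p = 0.700, limma), and by 0.04 without LPS replicate 1. The last 112 bases of the annotated gene overlap Nt5dc2 on the plus strand, whose level was 1.40 to 2.35 log2 CPM in LPS + BMS, 1.75 to 2.19 in LPS and 3.49 to 4.33 in UT libraries. The strand setting of the counting is not given in the sources used here, so it is not known whether reads in the 112 shared bases were told apart. Nt5dc2 moved in the same direction as Stab1, and its part in the Stab1 values was not tested.

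Lrp1 (ENSMUSG00000040249, chromosome 10, 127538161 to 127621148, minus strand) encodes a large endocytic receptor of the LDL receptor family for apolipoprotein E and protease complexes. It was at 7.83, 7.79 and 7.90 log2 CPM in LPS + BMS, 7.71, 7.76 and 7.57 in LPS, and 9.50, 9.59 and 9.74 in UT libraries. It had the steepest fall of the 8. Lrp1 was 3.82-fold lower in LPS than in UT (log2 difference -1.93, SE 0.10, adjusted p = 3.78e-09, limma) and 3.41-fold lower in LPS + BMS than in UT (-1.77, SE 0.10, adjusted p = 8.87e-09). All LPS + BMS libraries lay slightly above all LPS libraries. The difference, 0.16 (95% interval -0.06 to 0.38), was not called (adjusted p = 0.484, limma).

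**Figure D2:**
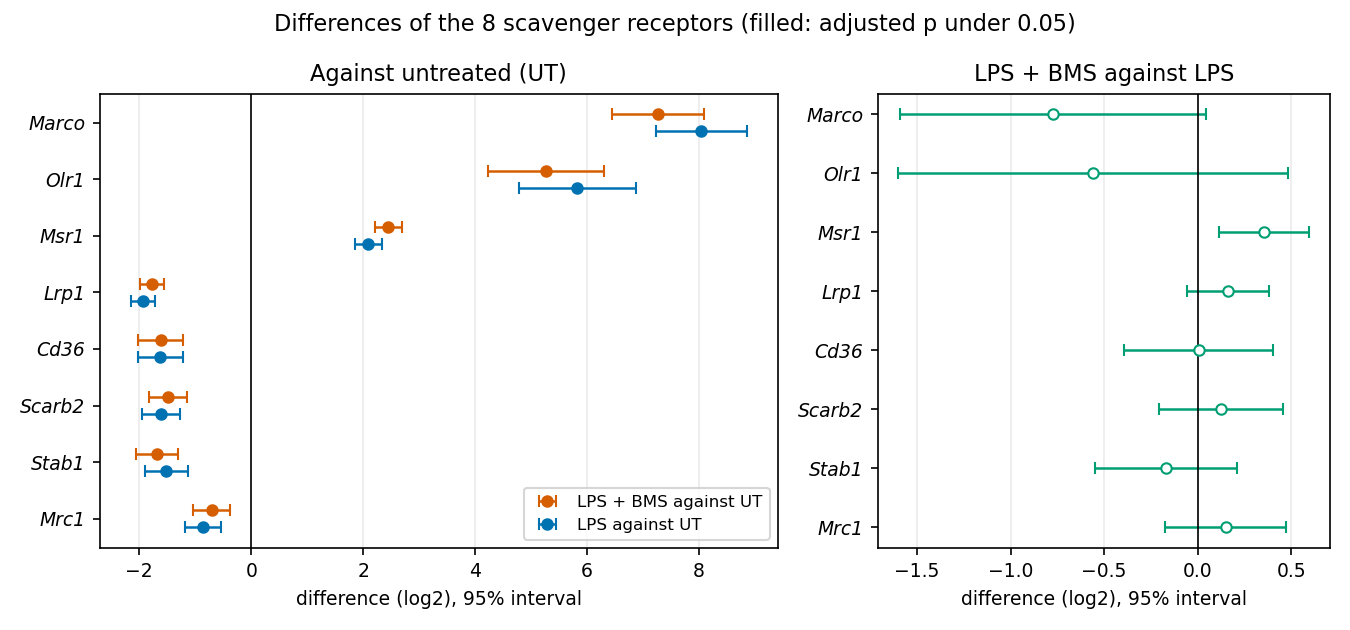
Differences on the log2 scale (x axis) with 95% intervals from limma for each receptor (y axis), on the left for LPS + BMS and LPS against UT and on the right for LPS + BMS against LPS, with filled points at an adjusted p under 0.05. All points on the left are filled, from -1.93 for Lrp1 to 8.04 for Marco in LPS against UT, and none on the right is.

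The make-up of the receptor transcripts differed between the groups. A 3′ library gives reads from transcript ends whatever the transcript length, so levels can be set side by side as 3′ tags. The 8 transcripts summed to 1690 ± 87.2 CPM in LPS + BMS, 1475 ± 47.1 in LPS and 1946 ± 162 in UT libraries (SD, n = 3 each). Msr1 made up 61.8% ± 0.57 of this sum in LPS + BMS, 55.5% ± 5.28 in LPS and 9.96% ± 1.71 in UT libraries. In UT libraries Lrp1 was the largest part instead, with 13.6% ± 0.22 in LPS + BMS, 13.9% ± 1.36 in LPS and 40.3% ± 0.44 in UT libraries. Cd36 made up 8.94% ± 1.10 in LPS + BMS, 10.4% ± 3.04 in LPS and 23.8% ± 1.84 in UT libraries. Without Msr1 the other 7 transcripts summed to 647 ± 40.4 CPM in LPS + BMS, 656 ± 69.3 in LPS and 1754 ± 180 in UT libraries.

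**Figure D3:**
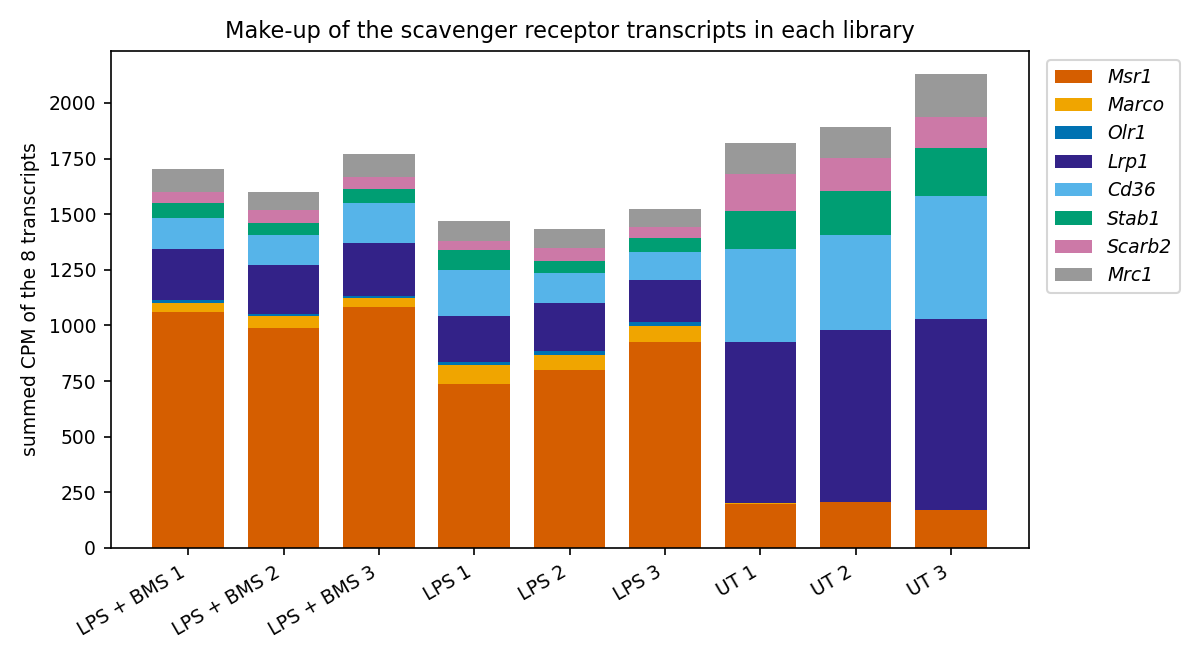
Summed CPM (y axis) of the 8 receptor transcripts in each library (x axis), stacked by gene. Msr1 fills more than any other gene in the LPS + BMS and LPS libraries, and Lrp1 and Cd36 do in the UT libraries.

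Among themselves Cd36 and Stab1 had the most similar profiles, with a root mean square difference of 0.16 over the 9 libraries after centring each gene on its mean in log2 units. Next came Cd36 and Lrp1 at 0.23 and Scarb2 and Lrp1 at 0.25. Among 5601 named genes in the upper part of the expression range (mean no lower than the median gene), those nearest to Lrp1 were Fam168a (0.08), Nfic (0.08) and Cdk14 (0.10). Trim37 was nearest to both Cd36 (0.10) and Stab1 (0.11), followed by Adcy9 and Utrn for Cd36 and by Entpd1 and Tmem175 for Stab1. Nearest to Scarb2 were Inppl1 (0.09), Serpinb6a (0.10) and Gpx1 (0.13), and to Mrc1 Mrps12 (0.09), Zfp322a (0.10) and Dclre1c (0.13). For Msr1 they were Slc7a1 (0.14), Denr (0.14) and Inpp5b (0.15). Marco and Olr1, near the bottom of the scale in UT libraries, had mean levels of 3.33 and 1.71 log2 CPM over the 9 libraries. Both lie below the median gene, so genes of their own mean level were not among the candidates. The part of this cut in their distances was not tested. Their nearest candidates were farther away. They were Mir155hg (0.48), Adora2a (0.50) and Cxcl2 (0.54) for Marco, and Bcl2a1a (0.48), Tnfsf15 (0.50) and Hdc (0.51) for Olr1. Bcl2a1a has near-identical copies, so its own value is uncertain.

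Other scavenger receptor classes moved in both directions as well. Of 16 such genes sought 9 were listed. In LPS against UT 3 rose and 4 fell, with a median of -0.98, and in LPS + BMS against UT 3 rose and 5 fell. Over all tested genes 21.5% were called higher and 25.4% lower in LPS against UT, with a median of -0.06. In LPS + BMS against UT these shares were 21.5% and 25.6%. Scarb1, a class B receptor for HDL, fell by 1.55 in LPS against UT (SE 0.16), Clec7a, the beta-glucan receptor Dectin-1, by 1.81 (SE 0.15) and Cd68 by 1.35 (SE 0.12). Scarb1 was the 1 gene of this group called in LPS + BMS against LPS, where 0.959% of all genes were called higher. It was at 4.35 ± 0.12 log2 CPM in LPS + BMS and 3.60 ± 0.08 in LPS libraries (SD, n = 3 each), higher by 0.75 (SE 0.16, adjusted p = 0.0236, limma), against 5.15 ± 0.08 in UT libraries. That call ended without LPS replicate 3 or any of the LPS + BMS libraries, with only these groups in the fit and with centring on ribosomal protein genes (adjusted p up to 0.135).

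In the LDL receptor family and its partners 2 of 10 tested genes rose and 6 fell in LPS against UT (median -0.79). Of all tested genes 21.5% were called higher, near the share in this list, and 25.4% lower (median -0.06). None of the 10 was called in LPS + BMS against LPS (0 at adjusted p under 0.05, limma). Among all tested genes 0.959% were called higher and 1.16% lower in that comparison. Lrp10, a member of the family, rose by 0.98 in LPS against UT (SE 0.12). Of 13 tested genes for the uptake of apoptotic cells 1 rose and 9 fell in LPS against UT (median -0.77). The shares over all tested genes were again 21.5% and 25.4%. Mertk, the receptor kinase for dying cells, fell by 4.14 (SE 0.24) and Itgb5, an integrin chain, by 1.86 (SE 0.26). Abca1, the cholesterol exporter, was the 1 gene that rose, by 0.58 (SE 0.17; adjusted p = 0.0131, and 0.0514 without a mean trend, limma), and was higher again in LPS + BMS than in LPS by 0.76 (SE 0.17, adjusted p = 0.0344, limma). The second call ended without LPS replicate 2 or 3, UT replicate 2 or any LPS + BMS library, among other settings (adjusted p up to 0.249).

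Among 13 lysosomal genes around Scarb2 12 fell in LPS against UT and none rose, and 12 fell in LPS + BMS against UT. Of all tested genes 25.4% and 25.6% were called lower in these comparisons, and 21.5% were called higher in each. The summed level of these 13 lysosomal genes was 11038 to 11454 CPM in LPS + BMS, 10952 to 11404 in LPS and 22531 to 22981 in UT libraries. Lipa, the lysosomal acid lipase, fell by 2.73 (SE 0.14) and Hexa, a hexosaminidase subunit, by 1.28 (SE 0.11). None of the 13 was called between LPS + BMS and LPS, where 0.959% of all genes were called higher and 1.16% lower.

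Of 13 genes for fatty acid handling 4 rose and 8 fell in LPS against UT. The shares over all tested genes were 21.5% higher and 25.4% lower. Acsl1, an acyl-CoA synthetase, rose by 3.49 (SE 0.12), and Lpl, lipoprotein lipase, fell by 2.08 (SE 0.11). In LPS + BMS against LPS 2 rose and none fell, beside 0.959% of all tested genes called higher and 1.16% lower. Plin2, the lipid droplet coat protein, was at 8.38 ± 0.14 log2 CPM in LPS + BMS, 6.87 ± 0.40 in LPS and 9.13 ± 0.06 in UT libraries (SD, n = 3 each). It rose by 1.52 in LPS + BMS against LPS (SE 0.16, adjusted p = 0.000506, limma) and was called in all 19 alternatives. Fabp4, a fatty acid carrier, rose by 1.39 (SE 0.30, adjusted p = 0.0271, limma), a call that ended in 7 of 18 alternatives, among them each that left out LPS replicate 1 or 2 or an LPS + BMS library (adjusted p up to 0.123). Against UT the log2 difference of Fabp4 was -1.13 in LPS (SE 0.30) and 0.26 in LPS + BMS (not called, adjusted p = 0.488, limma). The log2 difference of Cd36 between LPS + BMS and LPS was 0.00.

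Transcription factors known to act on some of these receptors moved both ways. Of 16 tested 5 rose and 7 fell in LPS against UT, with a median of -0.15. All tested genes had shares of 21.5% higher and 25.4% lower and a median of -0.06. Tfec, of the MiT family, rose by 5.70 (SE 0.21). Pparg, known to activate Cd36, fell by 3.44 (SE 0.29), while Ppard, another PPAR of this list, rose by 1.73 (SE 0.28). Nfe2l2, which encodes NRF2 and is known to act on Marco and Cd36, rose by 0.51 (SE 0.09). Pparg, Ppard and Nfe2l2 were named after their values were seen, and their part in the receptor values was not tested. In LPS + BMS against LPS 2 rose and none fell, beside 0.959% of all tested genes called higher and 1.16% lower. Rxra, the partner of PPAR and LXR receptors, rose by 1.47 (SE 0.32, adjusted p = 0.0294, limma). Its call ended in 8 of 19 alternatives, among them each that left out LPS replicate 1 or 2, UT replicate 2 or an LPS + BMS library (adjusted p up to 0.147). Against UT Rxra was lower in LPS, with a log2 difference of -2.87 (SE 0.32), and in LPS + BMS, with -1.40.

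**Figure D4:**
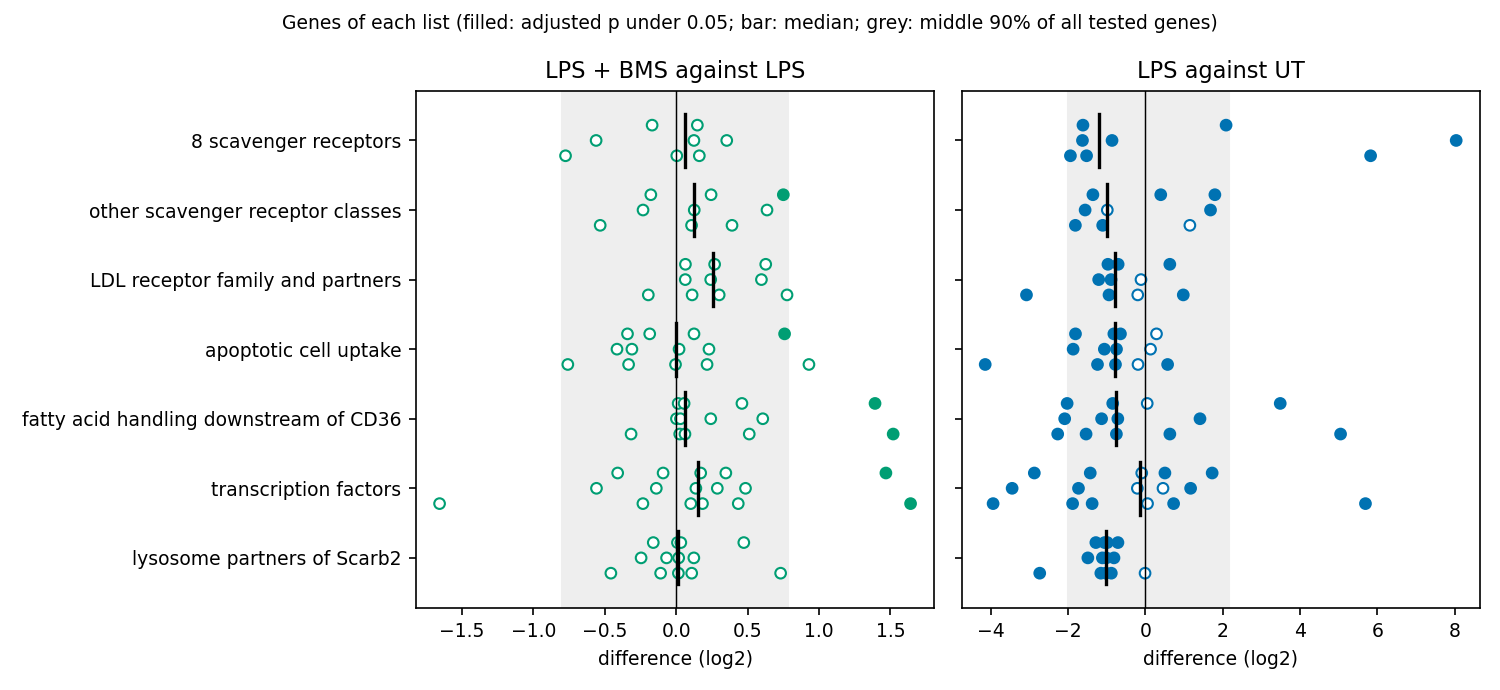
Differences on the log2 scale (x axis) of the 8 scavenger receptors and of the 6 gene lists (y axis), in LPS + BMS against LPS on the left and LPS against UT on the right, 1 point per gene, filled at an adjusted p under 0.05, with the list median as a bar and the middle 90% of all tested genes in grey (-0.80 to 0.78 on the left, -2.00 to 2.16 on the right). On the left 6 list genes and no receptor are filled, all to the right of 0.

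Of the 8 macrophage markers, which include Cd68, Cd14 and Mertk, 6 were called lower and 1 higher in LPS against UT, and their sum was 4746 to 4830 CPM in LPS + BMS, 3987 to 4866 in LPS and 8007 to 8683 in UT libraries. The shares over all tested genes were 25.4% lower and 21.5% higher. Lyz2 fell by 0.99 (SE 0.13, limma). Cd14 was the marker called higher, by 1.80 (SE 0.30), and Adgre1 was not called (0.07, adjusted p = 0.692, limma). The markers that fell moved with the receptors that fell, and their part in that fall was not tested. Of 8 neutrophil markers 3 were listed, and 2 of these were called higher in LPS + BMS than in LPS. The share of all tested genes called higher there was 0.959%. S100a8 was higher by 2.29 (SE 0.34, adjusted p = 0.00377, and 0.0564 without a mean trend, limma) and Mmp8 by 1.63 (SE 0.28, adjusted p = 0.00996, and up to 0.0694 without LPS + BMS replicate 1 or 3). S100a9 differed by 0.49 and was not called (95% interval -1.70 to 2.68, adjusted p = 0.863, limma). The 3 summed to 183 to 277 CPM in LPS + BMS, 38.1 to 66.7 in LPS and 11.3 to 34.2 in UT libraries, with S100a8 the most abundant, while Ly6g, Camp, Ngp, Ltf and Retnlg were not listed.

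Itgax and Hdc, like Marco and Olr1, were higher in LPS than in UT. Itgax and Hdc were also called lower in LPS + BMS than in LPS. Itgax, the 1 listed dendritic cell marker, was at 4.8 to 5.4 CPM in LPS + BMS, 13.5 to 22.5 in LPS and 3.0 to 4.2 in UT libraries. It differed by -1.68 between LPS + BMS and LPS (SE 0.27, adjusted p = 0.00587, limma) and by 2.23 between LPS and UT (SE 0.27, adjusted p = 1.35e-05). Hdc, histidine decarboxylase and the 1 listed mast cell marker, was at 60.5 to 77.2 CPM in LPS + BMS, 106 to 118 in LPS and 2.2 to 2.6 in UT libraries. Its differences were -0.70 between LPS + BMS and LPS (SE 0.15, adjusted p = 0.0319, limma) and 5.56 between LPS and UT (SE 0.15, adjusted p = 9.55e-12). The first of these calls ended in 8 of 19 alternatives, among them each that left out LPS replicate 2 or 3 or an LPS + BMS library (adjusted p up to 0.188). Flt3, Zbtb46, Kit and Cpa3, other markers of these cell types, were not listed. Of the 4 listed stroma markers, at 6.2 to 13.5 CPM in sum in LPS + BMS, 13.7 to 23.7 in LPS and 6.1 to 14.0 in UT libraries, 1 was called in LPS against UT. This was Pdgfrb, higher in LPS (adjusted p = 1.91e-06, limma), where 21.5% of all tested genes were called higher. It was at the lowest value of the library in all UT libraries, so no fold is given. Adgre1, Cd14, Mmp8, S100a9 and Pdgfrb were named after their values were seen. The part of all these markers in the receptor values was not tested.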

How the data were processed

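Total RNA (100 ng) was turned into libraries of mRNA 3′ ends with the QuantSeq forward kit and 16 PCR cycles, per the labels' protocols; no molecular identifiers are mentioned, so intervals from reads cover counting error only. Tools named in the submitters' processing notes, with no role given, are featureCounts 1.5.1, STAR 2.5.2b, edgeR, limma and MultiQC, and the build is GRCm38. Annotation, filter and strand setting are not stated there or in the labels. The deposited values are log2 scores, read from the values as log2 CPM that were quantile-normalised over the 9 libraries: their powers of 2 sum to 987472 to 987498 in each. Such scaling cannot show a shift of most transcripts in one direction. Depth was estimated from the spacing of distinct values 5 to 40 of each library and is approximate.

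Genes at a log2 CPM of at least 0 in 3 libraries were tested, 12196 of 12204, all 8 receptors among them. One limma 3.58.1 model (R 4.3.3) with a mean per group and a mean trend gave two-sided tests with Benjamini-Hochberg adjustment over all tested genes, and adjusted p under 0.05 was a call. SE is the moderated standard error. The steps were tested on simulated data. Symbols matched 12181 identifiers, and gene coordinates are those of GENCODE M21. Alternatives were a replicate term, other filters, other centring, no trend, other weights, fewer groups, a 2-fold minimum and fits without each library in turn. The receptors, the gene lists and the alternatives were chosen with earlier results of these data known. Besides the receptors, the text names the 3 nearest genes of each, the genes of each list with the smallest p in the inhibitor and LPS comparisons (2 each), transcription factors called in the inhibitor comparison, Acly, Tnf and the most abundant gene of each marker list; a few genes of the lists are not reported here.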

Additional observations from a re-analysis of the deposited data

How the results depend on the processing

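All 8 receptors kept their direction and their call in both comparisons with UT under all 19 alternatives that were run, and with a 2-fold minimum 7 of 8 remained in each. In LPS + BMS against LPS the count of called receptors was 1, Marco, with only the groups compared in the fit and 1 with precision weights by vooma, and 0 under every other setting. Of all 12196 tested genes 287 were called with only the groups compared (119 higher, 168 lower), and 388 with vooma (173 higher, 215 lower). Uncalled values near 0 changed sign. With centring on ribosomal protein genes Cd36 was -0.0788. With 1 library left out the difference between LPS + BMS and LPS ranged from -0.142 to 0.226 for Cd36, from -0.322 to 0.0406 for Stab1, from -0.0271 to 0.247 for Scarb2 and from -0.447 to 0.955 for S100a9. The cause was not tested.

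Over all genes, 258 were called in LPS + BMS against LPS, 117 higher and 141 lower. The count was 162 with centring on ribosomal protein genes (53 and 109), 99 without a mean trend, 814 with weights per library, 388 with vooma and 119 with a 2-fold minimum, and 62 to 318 when 1 library was left out, with 79, 143 and 62 without LPS + BMS replicates 1, 2 and 3 and 160 without LPS replicate 3. With the 2-fold minimum 3309 of 5730 genes remained in LPS against UT and 3320 of 5747 in LPS + BMS against UT. Of the 74 tested genes in the 6 lists 6 were called in LPS + BMS against LPS. Of all tested genes 0.959% were called higher there and 1.16% lower. The list count was 3 without a mean trend, 3 with only the groups compared and 11 with weights per library. It was 2 to 7 when 1 library was left out. Without LPS + BMS replicates 1, 2 and 3 it was 2, 3 and 2, and without LPS replicate 2 it was 3. With a 2-fold minimum 39 of 61 list genes remained in LPS against UT and 38 of 58 in LPS + BMS against UT.

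Correlations over genes between the deviations of samples ranged from -0.30 to 0.17 for equal numbers and from -0.21 to 0.29 for different numbers. Each deviation was taken from a mean of only 3 libraries, so these values cannot tell whether the numbers mark a pairing. With the replicate number as a block, 208 genes and 0 receptors were called in LPS + BMS against LPS. All 8 receptors were called in both comparisons with UT. Fabp4 and Hdc were no longer called in LPS + BMS against LPS (adjusted p = 0.0548 and 0.0575, limma). Pseudocounts were not varied, since the values are already logarithms. Depth limits Marco and Olr1 in UT libraries, where 2 reads each set the size of their rise.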
